A study of Mus musculus with 18 samples.

Results

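The genes described here are 32 lysosomal genes: cathepsins and other proteases, glycosidases and lipid hydrolases, hydrolase helper proteins, membrane proteins of the organelle, and the transcription factors Tfeb and Tfe3. They were taken by gene symbol for their known function, by a rule that uses no measured value, out of 32789 genes in the count table; the list was drawn up with earlier results of these data known. RNA was measured in alveolar macrophages, the resident phagocytes of the airspaces, which were recovered from the bronchoalveolar lavage of mice with CD11c microbeads. The 18 polyA-selected RNA-seq libraries formed 6 groups of 3. The knockouts carried CD11c-Cre and were labelled CD11c-Cre_Vhl-Hif1-KO, CD11c-Cre_Vhl-Hif2-KO and CD11c-Cre_Vhl-Hif1-Hif2-KO. Each had its own control group, labelled Control Vhl-Hif1a_flox-flox, Control Vhl-Hif2a_flox-flox and Control Vhl-Hif1-Hif2a_flox-flox. All 3 knockouts are thus labelled as lacking Vhl, and the third, called the triple knockout here, as lacking Vhl, Hif1a and Hif2a (gene symbol Epas1). CD11c-Cre acts in cells that express CD11c, which include dendritic cells besides alveolar macrophages. The labels give no age, sex or strain, do not say whether the controls carry Cre, and do not say that each library came from a separate mouse, so p-values measure only the spread between these libraries. Levels are in CPM (counts scaled to the size of each library), and differences are log2 fold changes from edgeR, called at an adjusted p under 0.05 over 12900 tested genes.

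Lysosomes are acidic organelles in which proteases, glycosidases and lipases break down material taken up by phagocytosis or delivered by autophagy. In alveolar macrophages they handle inhaled particles, microbes and spent surfactant, whose lipids must be degraded. TFEB and TFE3 bind a palindromic promoter motif, called the CLEAR element, that is shared by many lysosomal genes. VHL marks the HIF-α subunits for degradation, so cells without it keep whichever HIF-α subunit is left.

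The libraries held 19230000 to 34015000 counts each. Vhl fell in all 3 knockouts, with log2 fold changes of -2.55, -3.05 and -2.56 in the Vhl-Hif1, Vhl-Hif2 and triple crosses (edgeR adjusted p = 8.8e-08, 7.6e-10 and 1.2e-07). The RNA levels of Hif1a and Epas1 did not follow the labels. Hif1a fell from 217 ± 33.3 to 66.3 ± 10.8 CPM (SD, n = 3) in the libraries labelled Vhl-Hif2 knockout (edgeR adjusted p = 4.3e-06), and its log2 fold change was -0.24 in those labelled Vhl-Hif1 knockout (edgeR adjusted p = 0.66). Epas1 was higher in the libraries labelled Vhl-Hif2 knockout, by 0.97 (edgeR adjusted p = 0.0019), and was 0.46 above controls in those labelled Vhl-Hif1 knockout, without overlap or a call (edgeR adjusted p = 0.26). In the triple knockout neither was called, with log2 fold changes of 0.19 for Hif1a and -0.24 for Epas1 (edgeR adjusted p = 0.56 and 0.51). Reads from exons that were not deleted are counted too, so these levels do not check the Hif1a and Epas1 deletions. Whether the Vhl-Hif1 and Vhl-Hif2 labels were exchanged could not be settled from the Hif1a and Epas1 levels, and was not tested with other genes. Which HIF-α subunit remained in either cross is therefore uncertain for every result below, and groups are named by their labels throughout. The summed level of 10 alveolar macrophage markers was 21960 to 38820 CPM, with every marker above 1 CPM in every group. That sum, most of which was Chil3, was higher in every knockout library than in every control library of its own cross, but the markers did not move together: 1 was called higher and 1 lower in the Vhl-Hif1, 4 and 2 in the Vhl-Hif2, and 1 and 0 in the triple cross. Summed markers of monocytes and interstitial macrophages were 1616 to 2881 CPM, with 4 to 8 of the 12 markers averaging under 1 CPM in a group. Of 9 tested, 2 were called higher and 0 lower in the Vhl-Hif1, 2 and 1 in the Vhl-Hif2, and 1 and 0 in the triple cross. Summed neutrophil markers were 74.04 to 82.51 CPM in the Vhl-Hif1 knockout and 148.8 to 165 CPM in its controls, with 6 of 10 markers averaging under 1 CPM in both. Summed dendritic cell markers ranged from 28.54 to 93.12 CPM over all libraries. Markers of T and NK cells, of B cells, and of eosinophils and mast cells each summed to under 1 CPM. Lung epithelial markers summed to 157.7 to 208 CPM in the Vhl-Hif1, 395.4 to 557.6 in the Vhl-Hif2 and 270.5 to 355.8 in the triple cross. These ranges did not overlap, and 5 or 6 of the 9 epithelial markers averaged under 1 CPM in each group. Markers of endothelium and fibroblasts summed to 21.28 CPM in 1 Vhl-Hif1 control library and to under 1 CPM in every group other than the Vhl-Hif1 controls. The part of these cells in the results below was not tested. Library 2 of the triple-cross controls stood apart from its group, and control library 3 of the Vhl-Hif1 cross and control library 1 of the Vhl-Hif2 cross had raised Egln3, a hypoxia-response gene, at 32.5 and 11.5 CPM.

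The levels of the 32 genes spanned a wide range. Per kilobase of exons, Ctsd, which encodes the aspartic protease cathepsin D, averaged 3308 CPM per kb over the 9 control libraries, with a range of 2866 to 4576. Ctss, the protease of MHC class II processing, averaged 2204 and Psap, the precursor of the saposins that help sphingolipid hydrolases, 2191 CPM per kb. The ranges of Ctss and Psap overlapped (1864 to 2423 and 1859 to 3111 CPM per kb), as did those of Psap and Ctsd, while those of Ctss and Ctsd did not. Within each of the 9 control libraries, though, Ctsd had more counts than Psap over shorter exons (2351 and 2744 bases). Ctsz, Cd68 and Lamp1 followed at 629, 579 and 490.0 CPM per kb. At the low end, Smpd1 and Tfe3 averaged 8.09 and 7.85 CPM per kb, with overlapping ranges of 7.30 to 10.2 and 7.06 to 10.04. Ctse, which encodes cathepsin E, had 0 to 5 counts per library and was the 1 gene of the 32 left untested by the filter on low counts. Exon lengths came from GENCODE M21, and 808 bases (34.4%) of the exons of Ctsd are shared on the same strand with the predicted gene Gm49369, so the level of Ctsd is less certain. Together the 32 genes took 2.70% to 3.79% of all counts.

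**Figure D1:**
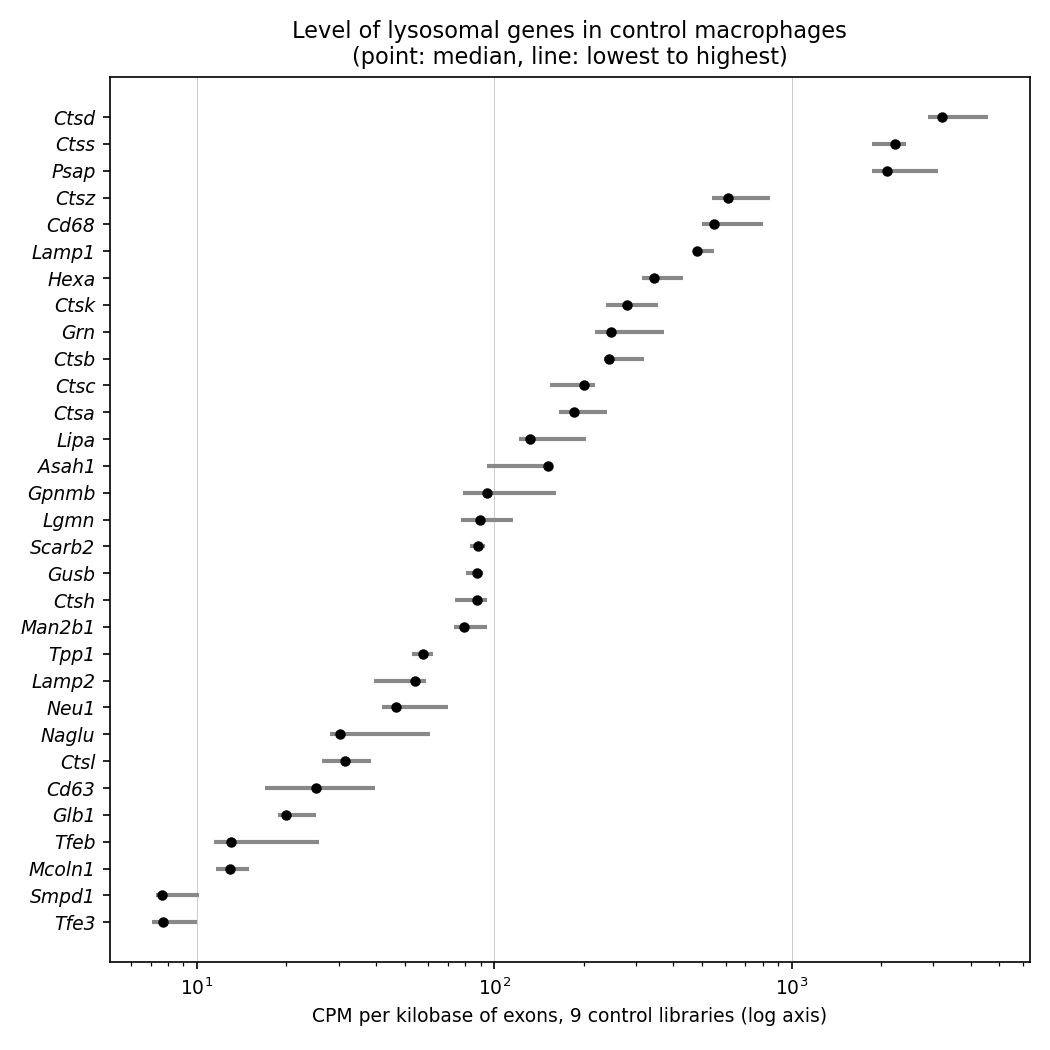
Level of each lysosomal gene other than Ctse in the 9 control libraries, in CPM per kilobase of exons on a log axis; points are medians and lines run from the lowest to the highest library. Ctsd, Psap and Ctss lie at or above 1859 CPM per kb in every library, and Smpd1 and Tfe3 at or below 10.17.

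Most lysosomal genes did not pass the test in any knockout. In the Vhl-Hif1 knockout 1 of 31 tested genes was called higher (Ctsk) and 0 lower, against 2.22% and 1.42% of all tested genes. At an unadjusted p under 0.05 there were 8 of 31 in either direction, against 13.2% of all genes, and DESeq2 called 2, both higher. In the libraries labelled Vhl-Hif2 knockout 1 was called higher (Smpd1) and 4 lower (Ctsh, Ctsl, Man2b1 and Tfe3), or 16.1% of 31 in all, against 7.68% of all genes called higher and 7.01% lower. At an unadjusted p under 0.05 there were 7, against 26.3% of all genes. In the triple knockout edgeR and DESeq2 called 0, and edgeR called 0.031% of all genes higher and 0.00775% lower. At an unadjusted p under 0.05 there were 5 of 31, against 11.5% of all genes. The 6 called genes were each called in 1 knockout, and none in more. The median log2 fold change of the 31 genes was -0.012 in the Vhl-Hif1, -0.088 in the Vhl-Hif2 and -0.090 in the triple cross, beside -0.00066, 0.0032 and -0.010 over all tested genes. Leaving out knockout library 1 or control library 3 of the Vhl-Hif2 cross left 2 of its 5 calls. Calls over all genes then went from 1895 to 1249 and 1513. Removing each library's GC trend gave 10 lysosomal calls there and 4 in the Vhl-Hif1 cross. Calls over all genes rose too, from 1895 to 2815 and from 469 to 786. With the spread estimated without control library 2 of the triple cross, 9 lysosomal genes were called in the Vhl-Hif2 and 3 in the Vhl-Hif1 cross. Calls over all genes were then 2907 and 861. In bulk samples, fewer cells of a type and less RNA per cell cannot be told apart.

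For the genes that were not called, the 95% interval of the fold change lay within 2-fold in either direction for 30 of 30 uncalled genes in the Vhl-Hif1, 26 of 26 in the Vhl-Hif2 and 31 of 31 in the triple cross. It lay within 1.5-fold for 29, 23 and 28 of them. Knockout and control libraries did not overlap for 14 of the 31 genes in the Vhl-Hif1 cross (6 higher, 8 lower), where 23.8% of all genes did not overlap. The counts were 11 in the Vhl-Hif2 cross (3 higher, 8 lower; 35.1% of all genes) and 2 in the triple cross (both lower; 15.3% of all genes). Summed over the 32 genes, the level was 28096 ± 312 CPM in the Vhl-Hif1 knockout and 29301 ± 621 in its controls (SD, n = 3). It was 28184 ± 1097 and 30511 ± 1559 CPM in the Vhl-Hif2 cross, and 32701 ± 1031 and 34653 ± 3869 CPM in the triple cross. The knockout libraries lay below the control libraries in the Vhl-Hif1 cross and overlapped them in the other two.

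**Figure D2:**
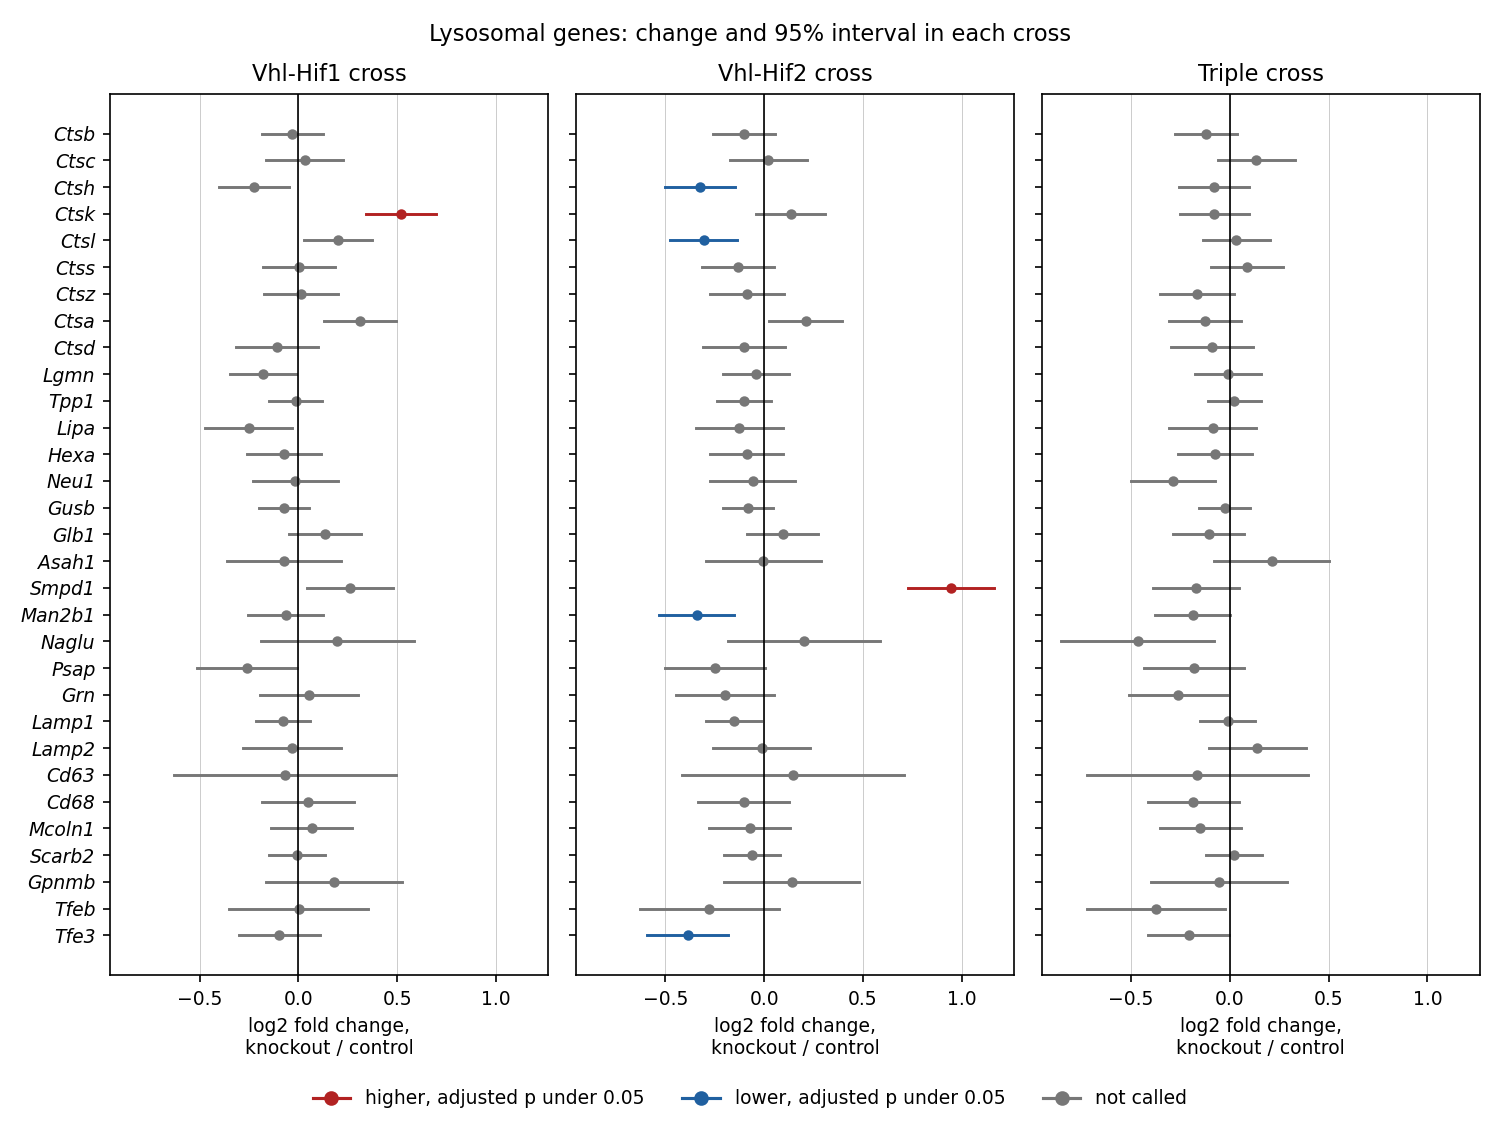
Log2 fold change of each of the 31 tested lysosomal genes, knockout over control, with its 95% interval, in the 3 crosses (n = 3 per group). Ctsk in the Vhl-Hif1 cross and Smpd1 in the Vhl-Hif2 cross are the genes called higher, 4 genes are called lower in the Vhl-Hif2 cross, and none is called in the triple cross.

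Among the 7 cysteine cathepsins, Ctsk rose in the Vhl-Hif1 knockout. Ctsk encodes cathepsin K, a collagen- and elastin-degrading protease best known from osteoclasts. Its libraries read 524, 584 and 606 CPM in the Vhl-Hif1 knockout and 430.1, 378 and 387 CPM in the controls. Every knockout library was above every control library, and also above every library but 1 of the triple cross. The log2 fold change was 0.52 with a standard error of 0.083, or 1.43-fold (edgeR adjusted p = 8.9e-04). In the Vhl-Hif2 cross Ctsk read 409, 429 and 438 CPM in the knockout and 423, 380.5 and 359 CPM in the controls, which overlapped (log2 fold change 0.13, 95% interval -0.041 to 0.31). In the triple cross it read 484, 481 and 467 CPM in the knockout and 539, 510.4 and 463 CPM in the controls, with overlap (log2 fold change -0.079, 95% interval -0.25 to 0.10). The call in the Vhl-Hif1 knockout held in all 16 alternative analyses, with values of 0.48 to 0.59. Ctsk lies 2016 bases from Arnt, the gene of the HIF-β subunit, which averaged 70.8 CPM in the Vhl-Hif1 knockout and 72.0 CPM in its controls and was not called.

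Ctsh and Ctsl were lower in the libraries labelled Vhl-Hif2 knockout. Ctsh, which encodes the aminopeptidase cathepsin H, an enzyme of surfactant protein processing in the lung, read 306, 301 and 324 CPM there and 332, 424 and 408 CPM in the controls. Control library 1 lay just above the highest knockout library, and the groups did not overlap. The log2 fold change was -0.32 with a standard error of 0.084 (edgeR adjusted p = 0.015). In the Vhl-Hif1 cross Ctsh was also below its controls in every library, at 331 ± 10.2 against 386 ± 14.8 CPM (SD, n = 3), and did not pass the test (log2 fold change -0.22, edgeR adjusted p = 0.21). The Vhl-Hif2 call was lost when only that cross was fitted (edgeR adjusted p = 0.056) and without knockout library 1 or 2 or control library 2 or 3 (edgeR adjusted p of 0.053 to 0.087). The log2 fold change ran from -0.25 to -0.33 in those fits.

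Ctsl, which encodes the endopeptidase cathepsin L, read 149, 156 and 165 CPM in the libraries labelled Vhl-Hif2 knockout and 192, 186 and 204 CPM in the controls. The groups did not overlap, and the log2 fold change was -0.31 with a standard error of 0.081 (edgeR adjusted p = 0.016). In the Vhl-Hif1 cross it lay the other way, at 214, 215 and 213 CPM in the knockout and 205, 183 and 171 CPM in the controls, without overlap and without a call (log2 fold change 0.20, edgeR adjusted p = 0.25). The Vhl-Hif2 call was lost without knockout library 1 or control library 3 (edgeR adjusted p = 0.083 and 0.082) and without the filter on low counts (0.061). The log2 fold change was then -0.27, -0.26 and -0.29. Antisense to Ctsl, Gm47123 shares 1742 bases (26.9%) of its exons and stayed under 1 CPM in these libraries. Of the other cysteine cathepsins, Ctsb, Ctsc, Ctss and Ctsz were not called in any knockout. The exons of Ctsb share 774 bases (12.8%) with Fdft1 on the opposite strand, a gene that was lower in the libraries labelled Vhl-Hif2 knockout (-0.48, edgeR adjusted p = 0.0076). The log2 fold changes of these 4 cathepsins ran from -0.17 (Ctsz, triple cross) to 0.13 (Ctsc, triple cross). Summed dendritic cell markers, which are low next to the cathepsins, were 34.93 to 37.01 CPM in the libraries labelled Vhl-Hif2 knockout and 43.59 to 93.12 CPM in their controls, with 4 of 9 markers under 1 CPM in both groups, and their part in these results was not tested.

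None of the 4 other tested proteases was called in a knockout in the main fit. With the spread estimated without triple-cross control library 2, Ctsa was called higher and Lgmn lower in the Vhl-Hif1 cross (edgeR adjusted p = 0.00615 and 0.035). Ctsa was then also called higher in the Vhl-Hif2 cross (edgeR adjusted p = 0.026). The setting, chosen after the data were seen, also raised calls over all genes. Ctsa encodes the protective protein that holds neuraminidase 1 and β-galactosidase together. It read 1015, 1026 and 1132 CPM in the Vhl-Hif1 knockout and 873, 839 and 845 CPM in its controls. Every knockout library lay above every control library, and the test was narrowly missed (log2 fold change 0.31, edgeR adjusted p = 0.057; 0.0086 with DESeq2). In the libraries labelled Vhl-Hif2 knockout Ctsa read 926, 1029 and 950.0 CPM against 903, 780.0 and 829 CPM, again without overlap (log2 fold change 0.21, edgeR adjusted p = 0.12). The exons of Ctsa share 495 bases (10.5%) with Pltp on the opposite strand. Pltp, the phospholipid transfer protein gene, rose by 0.92 and 1.01 in the same crosses (edgeR adjusted p = 3.6e-04 and 5.4e-05), from 194, 181 and 192 to 316, 369.6 and 391 CPM in the Vhl-Hif1 cross. Whether the counting used strand is not given in the sources used here, so the part of Pltp reads in the Ctsa counts was not tested. Ctsd read 6609.6 ± 108 against 7121 ± 202 CPM in the Vhl-Hif1 cross and 6764 ± 465 against 7262 ± 453 CPM in the Vhl-Hif2 cross (SD, n = 3). Lgmn, the asparaginyl endopeptidase that matures cathepsins, was below its controls in every Vhl-Hif1 knockout library, at 163 ± 5.80 against 184 ± 3.65 CPM (log2 fold change -0.18, edgeR adjusted p = 0.33). Tpp1, a tripeptidyl peptidase, had log2 fold changes of -0.012, -0.10 and 0.023 in the Vhl-Hif1, Vhl-Hif2 and triple crosses.

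Of the 9 glycosidases and lipid hydrolases, Smpd1 had the largest change of all 31 genes. Smpd1 encodes acid sphingomyelinase, which cleaves sphingomyelin to ceramide. It read 52.8, 47 and 50.3 CPM in the libraries labelled Vhl-Hif2 knockout and 26.9, 25.4 and 25.6 CPM in their controls. The lowest of these knockout libraries was above every one of the other 15 libraries. The log2 fold change was 0.95 with a standard error of 0.10, or 1.93-fold (edgeR adjusted p = 5.2e-06), and the call held in all 16 alternative analyses with values of 0.91 to 0.99. In the Vhl-Hif1 knockout Smpd1 read 25, 31.8 and 32.7 CPM against 24.3, 24.9 and 25.5 CPM in its controls. Library 1 lay within the control range and the others above it (log2 fold change 0.26, edgeR adjusted p = 0.24; 0.049 without library 1). The triple cross read 25.3, 26.7 and 28.4 CPM in the knockout and 29.3, 34 and 27.3 CPM in the controls, which overlapped (log2 fold change -0.17, 95% interval -0.39 to 0.045).

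The gene next to Smpd1 was also higher. Apbb1, which encodes an adaptor protein that binds amyloid precursor protein, lies on the opposite strand with its 3′ end 94 bases from that of Smpd1. Apbb1 read 8.77, 8.79 and 9.86 CPM in the libraries labelled Vhl-Hif2 knockout and 0.307, 0.0386 and 0.139 CPM in their controls (log2 fold change 5.87, edgeR adjusted p = 8.5e-07). In the Vhl-Hif1 cross it read 1.05, 1.38 and 3.32 CPM in the knockout and 0.169, 0.264 and 0.231 CPM in the controls (log2 fold change 3.09, edgeR adjusted p = 0.0014). In the triple cross every library was under 0.27 CPM. The genes share no annotated exon bases, and whether reads of one were counted for the other was not tested.

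Man2b1, the lysosomal α-mannosidase gene, read 461, 511 and 503 CPM in the libraries labelled Vhl-Hif2 knockout and 587, 630.2 and 652 CPM in the controls. The groups did not overlap (log2 fold change -0.34, standard error 0.09, edgeR adjusted p = 0.015). The call was lost without knockout library 1 or control library 3 (edgeR adjusted p = 0.085 and 0.075), with a log2 fold change of -0.30 each time. In the Vhl-Hif1 cross Man2b1 overlapped its controls, at 615 ± 45.4 against 643 ± 11.1 CPM. Lipa encodes the acid lipase that frees cholesterol and fatty acids from endocytosed lipoproteins. It read 735, 731 and 642 CPM in the Vhl-Hif1 knockout and 848, 837 and 825 CPM in its controls, lower in every library but not called (log2 fold change -0.25, edgeR adjusted p = 0.28). Naglu, a heparan sulfate hydrolase gene, had the widest intervals of the group, and in the triple cross its log2 fold change of -0.47 became -0.083 without control library 2. The other members were not called in any knockout. Hexa (β-hexosaminidase α subunit), Neu1 (neuraminidase 1), Gusb (β-glucuronidase), Glb1 (β-galactosidase) and Asah1 (acid ceramidase) had log2 fold changes between -0.29 (Neu1, triple cross) and 0.21 (Asah1, triple cross). Asah1, which acts on the ceramide that acid sphingomyelinase makes, read 514 ± 30.2 against 516 ± 12.3 CPM in the Vhl-Hif2 cross (log2 fold change -0.0032, 95% interval -0.29 to 0.29).

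The helper protein genes Psap and Grn were not called in the main fit. Once each library's GC trend was removed, Psap was called lower in the Vhl-Hif1 and Vhl-Hif2 knockouts (edgeR adjusted p = 0.027 and 0.017). Grn was then called lower in the Vhl-Hif2 cross (edgeR adjusted p = 0.016). With the spread estimated without triple-cross control library 2, Psap and Grn were called lower in the Vhl-Hif2 cross (edgeR adjusted p = 0.031 and 0.043). Both settings were chosen after the data were seen. Psap read 4205, 4276 and 4699 CPM in the Vhl-Hif1 knockout and 5478, 5207 and 5102 CPM in its controls. Every knockout library was lower (log2 fold change -0.26, edgeR adjusted p = 0.35). In the libraries labelled Vhl-Hif2 knockout Psap read 4958, 4716 and 5277 CPM against 6702, 5307 and 5761 CPM, again lower in every library (log2 fold change -0.25, edgeR adjusted p = 0.19). Grn encodes progranulin, which is cut into granulins in the lysosome, and read 729 ± 36.6 against 835 ± 65 CPM in the Vhl-Hif2 cross (log2 fold change -0.20, edgeR adjusted p = 0.32).

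None of the 7 membrane protein genes was called in a knockout in the main fit. Lamp1, an abundant glycoprotein of the lysosomal membrane, read 1201, 1114 and 1192 CPM in the libraries labelled Vhl-Hif2 knockout and 1305, 1256 and 1343 CPM in the controls. These groups did not overlap, with a log2 fold change of -0.15 (edgeR adjusted p = 0.14). The adjusted p was 0.045 with DESeq2, and 0.0405 with edgeR when the spread was estimated without triple-cross control library 2. It was 0.030 with edgeR once each library's GC trend was removed. Lamp2, which also serves chaperone-mediated autophagy, had log2 fold changes of -0.031, -0.013 and 0.14 in the Vhl-Hif1, Vhl-Hif2 and triple crosses. Scarb2, the receptor that carries β-glucocerebrosidase to lysosomes, had -0.0048, -0.062 and 0.023. Mcoln1, the calcium channel mucolipin 1, had 0.067, -0.073 and -0.15. Cd68, a macrophage-rich member of the LAMP family, read 699.8 ± 12.2 against 676 ± 28.4 CPM in the Vhl-Hif1 cross and 640.2 ± 8.22 against 688 ± 66.8 CPM in the Vhl-Hif2 cross (SD, n = 3). The tetraspanin gene Cd63 varied most between replicates: the Vhl-Hif2 controls alone ran 147, 62.4 and 74.7 CPM. Gpnmb, a glycoprotein induced in lipid-laden macrophages, likewise ran 828, 511 and 567 CPM in those controls. Control library 1, the highest for both genes, is the one with raised Egln3. The log2 fold changes in that cross were 0.15 for Cd63 and 0.14 for Gpnmb. Over 16 alternatives they ran from -0.082 to 0.61 and from 0.0044 to 0.38. Changes of this size could not be told from replicate spread for these 2 genes in that cross.

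Of the transcription factors, Tfe3 was lower in the libraries labelled Vhl-Hif2 knockout. It read 56.7, 53.8 and 51.2 CPM there and 74.6, 65.3 and 71.3 CPM in the controls. All 3 knockout libraries were below all 15 others. The log2 fold change was -0.39 with a standard error of 0.10 (edgeR adjusted p = 0.012). The call was lost without knockout library 3 or control library 1 (edgeR adjusted p = 0.057 and 0.054) and without both controls with raised Egln3 (0.074). The log2 fold change was then -0.35, -0.34 and -0.34. Tfeb read 56.4, 68 and 58 CPM in the same knockout and 73.9, 72.4 and 74.6 CPM in the controls, without overlap and without a call (log2 fold change -0.28, edgeR adjusted p = 0.32). In the Vhl-Hif1 cross Tfeb overlapped its controls, at 69 ± 11.1 against 69 ± 3.96 CPM.

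**Figure D3:**
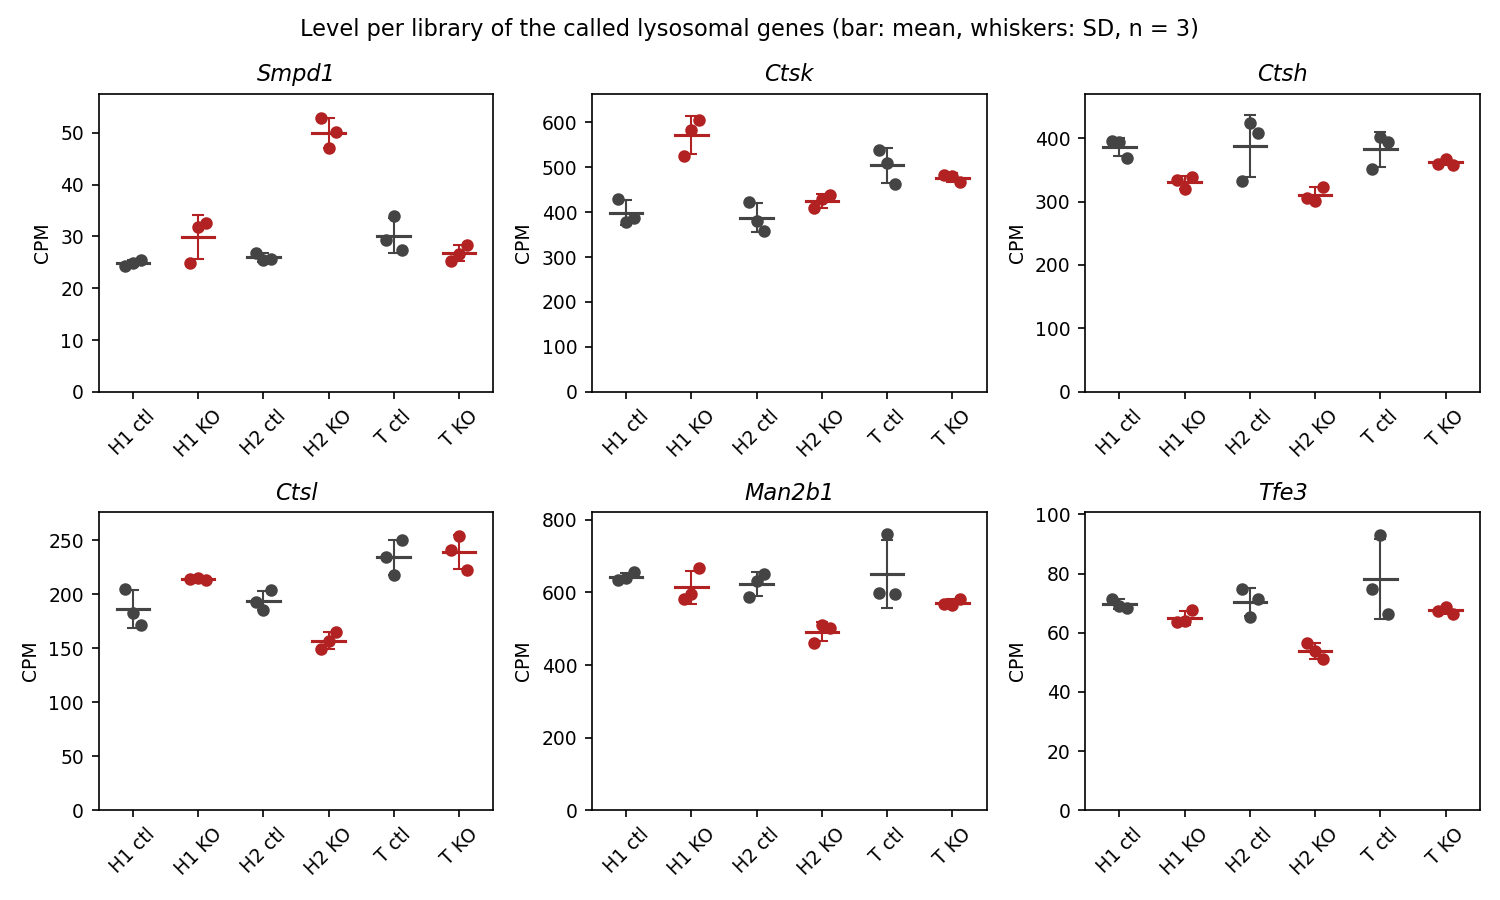
CPM per library of the 6 called lysosomal genes in the Vhl-Hif1 (H1), Vhl-Hif2 (H2) and triple (T) crosses, for controls (ctl, grey) and knockouts (KO, red); points are libraries, bars means and whiskers SD (n = 3). Smpd1 stands at 47 to 52.8 CPM in the libraries labelled Vhl-Hif2 knockout and at 24.3 to 34 CPM in all others, and Ctsk at 524 to 606 CPM in the Vhl-Hif1 knockout.

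Differences between the knockout effects were tested directly for each gene. The Vhl-Hif2 effect exceeded the Vhl-Hif1 effect for Smpd1, by 0.69 with a standard error of 0.14 (edgeR adjusted p = 0.014), and was below it for Ctsl, with a difference of -0.51 (edgeR adjusted p = 0.022). These were 2 of 31 genes, against 2.44% of all tested genes in either direction. The call of the Smpd1 difference was lost without both controls with raised Egln3 (edgeR adjusted p = 0.063), while its size stayed at 0.69. The call of the Ctsl difference was lost in 9 of 20 alternatives, among them each of Vhl-Hif1 knockout libraries 1 and 2, Vhl-Hif1 control libraries 2 and 3, Vhl-Hif2 knockout library 1 and Vhl-Hif2 control library 3 left out (edgeR adjusted p of 0.053 to 0.076). With these libraries left out in turn, its size ran from -0.45 to -0.51. For Ctsk the difference was -0.39 and did not pass (95% interval -0.63 to -0.14, edgeR adjusted p = 0.12). Against the triple effect, the Vhl-Hif2 effect was higher for Smpd1, by 1.12 (edgeR adjusted p = 8.6e-05), the 1 call among 31 where 7.99% of all genes were called. The Vhl-Hif1 effect was higher than the triple effect for Ctsk, by 0.60 (edgeR adjusted p = 0.011), also 1 call, against 2.04% of all genes. Ctsh, Man2b1 and Tfe3 passed no such test, with Vhl-Hif2 minus triple differences of -0.24 (95% interval -0.49 to 0.0093), -0.15 (-0.42 to 0.11) and -0.18 (-0.47 to 0.11).

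The triple cross was read with 1 uneven library among its controls. Across the 31 genes, control library 2 lay above the mean of control libraries 1 and 3 for 24 genes and below it for 7. The distance on the log2(CPM + 1) scale ran from -0.68 (Asah1) to 0.93 (Naglu). It followed the GC content of the transcripts, with Pearson's r of 0.91 across these 31 genes of 1 library, which are not independent replicates. Naglu (59.8% GC) read 88.4, 162 and 80.8 CPM in the 3 controls and Tfeb (63.2% GC) 85.5, 146 and 86.2 CPM. At the other end Asah1 (43.5% GC) read 513, 322 and 518 CPM and Lamp2 (38.7% GC) 562, 378 and 531 CPM. In all 4 genes library 2 was the extreme one. The 5 genes at an unadjusted p under 0.05 in the triple knockout, Neu1, Naglu, Grn, Tfeb and Tfe3, were all lower than controls and all highest in control library 2. Without that library the log2 fold change of Neu1 went from -0.29 to -0.12, that of Grn from -0.26 to -0.05, that of Tfeb from -0.37 to -0.069 and that of Tfe3 from -0.21 to -0.065. None of the 31 genes was called in the triple knockout with or without it. Knockout library 3 of the Vhl-Hif1 cross also had a GC trend. Over 11276 genes its difference from libraries 1 and 2 correlated with GC content at 0.58, beside 0.79 for triple-cross control library 2. Knockout libraries 1, 2 and 3 there had 1646, 1705 and 2092 counts of Tfeb and 13438, 14065 and 10308 of Asah1, so part of that group's spread may follow GC content, which was not tested.

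**Figure D4:**
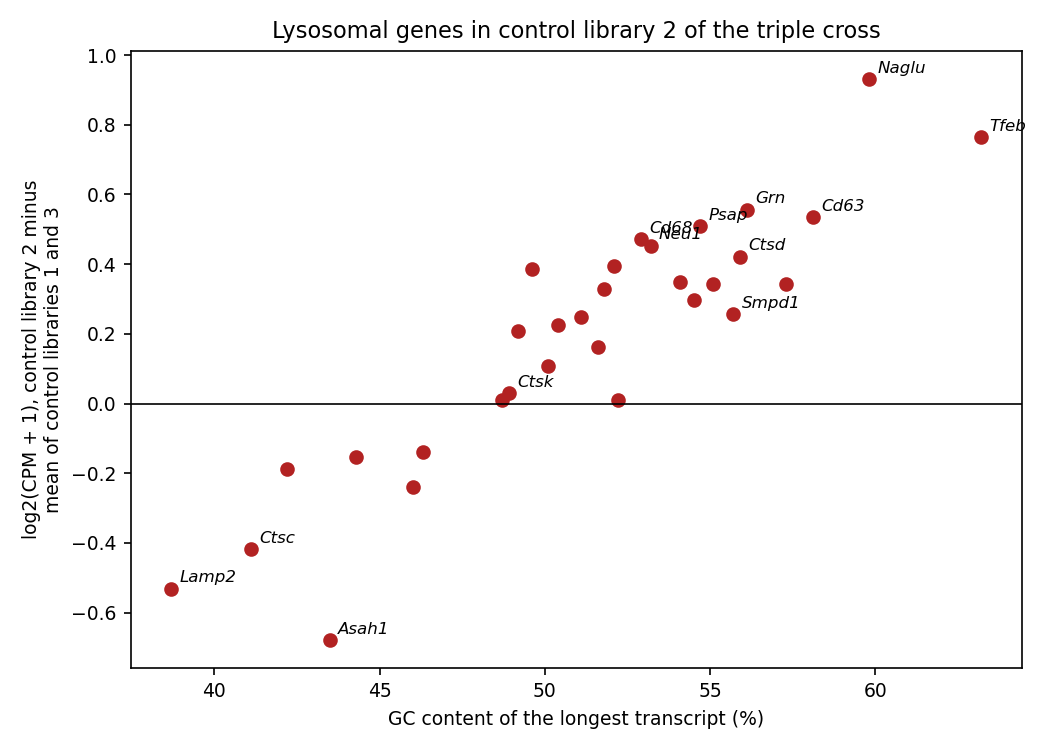
Each point is 1 of the 31 tested lysosomal genes: GC content of its longest transcript (x, percent) against the log2(CPM + 1) difference between control library 2 of the triple cross and the mean of control libraries 1 and 3 (y). The difference runs from -0.68 for Asah1 to 0.93 for Naglu, and 24 of the 31 genes lie above 0.

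The control groups themselves differed in lysosomal genes. The triple-cross controls were higher than the Vhl-Hif1 controls for 8 of 31 genes (25.8%) and lower for 0, against 2.98% of all genes called higher, with a median log2 fold change of 0.26 beside 0.0038 over all genes. By group these were 4 of 7 cysteine cathepsins (Ctsb, Ctsk, Ctsl and Ctsz), Lgmn, Lipa, Gpnmb and Tfeb. Lipa read 1382, 1138 and 1215 CPM in the triple-cross controls, 848, 837 and 825 CPM in the Vhl-Hif1 controls and 1135, 893 and 872 CPM in the Vhl-Hif2 controls. All triple-cross control libraries were above all Vhl-Hif1 ones, and 1 Vhl-Hif2 control lay just below the lowest of them (log2 fold change 0.57 against the Vhl-Hif1 controls, standard error 0.10, edgeR adjusted p = 0.0052). The Lipa call held in all 14 alternatives, with values of 0.49 to 0.74. The other calls had log2 fold changes of 0.28 (Ctsb), 0.34 (Ctsk), 0.33 (Ctsl), 0.36 (Ctsz), 0.34 (Lgmn), 0.60 (Gpnmb) and 0.62 (Tfeb), with edgeR adjusted p of 0.022 to 0.041. That count was 4 without control library 2 of the triple cross and 13 without its library 3. It was 5, 1 and 1 without Vhl-Hif1 control library 1, 2 or 3, and 1 without both controls with raised Egln3. Calls over all genes moved too, from 697 to 211 without Vhl-Hif1 control library 2. The knockouts of the triple cross also stood high: Lipa read 1174, 1203 and 1138 CPM there. Against the Vhl-Hif2 controls, the triple-cross controls were called higher for 1 gene, Ctsk (0.38, edgeR adjusted p = 0.02), against 1.54% of all genes, with a median of 0.21. DESeq2 called 9, and leaving out single libraries gave 0 (without Vhl-Hif2 control library 2 or 3) to 10 (without triple-cross control library 3). Over all genes the calls went from 441 to 983 with DESeq2 and to 141 without Vhl-Hif2 control library 2. The Vhl-Hif2 and Vhl-Hif1 controls differed in 0 of 31 genes by edgeR and DESeq2, where edgeR called 0.341% of all genes. At an unadjusted p under 0.05 there was 1 of 31, against 5.44% of all genes. The labels do not say whether the crosses were prepared together, so cross and preparation cannot be told apart. These comparisons share control groups with each other and with the knockout comparisons.

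The upstream sequences of these genes were searched for the motifs that TFEB and HIF recognise. RefSeq starts (GRCm38.p6) were found for 28 of the 32 genes, with 34 start sites, and the 250 bases before each were read on both strands. The CLEAR core TCACGTGA was in 3 of the 34 (Ctsa, Ctsd and Mcoln1), against 0.785% of 32851 promoters of all genes. The E-box CACGTG, which the CLEAR core contains, was in 8 of 34, against 6.02% of all. The hypoxia response core, ACGTG or GCGTG, was in 19 of 34 (15 genes), against 38.6% of all, and ACGTG is also part of every E-box. The 3 CLEAR cores are shown in capitals with 10 bases on each side, 5′ to 3′ on the strand of the gene, to let their palindromes be compared. Their first bases lie 13, 99 and 46 bases before the start in Ctsa, Ctsd and Mcoln1.
Ctsa, chr2:164833750-164833777, plus strand: gagcaaactgTCACGTGAtgcagatgct
Ctsd, chr7:142387909-142387936, minus strand: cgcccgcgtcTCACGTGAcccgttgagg
Mcoln1, chr8:3500463-3500490, plus strand: ggcgccccgcTCACGTGAccgcggcgca
These 3 genes were not called in any knockout in the main fit. Among the called genes, Ctsl had an E-box, with hypoxia cores that begin 236 and 235 bases before the start. Tfe3 had hypoxia cores 200 and 151 bases before a start site and 145 bases before another. Man2b1 had none of the motifs, and no start was found for Ctsh. Smpd1 and Ctsk, whose calls held in every alternative analysis, had none of these motifs in their 250 upstream bases, which are therefore printed without capitals.
Smpd1, chr7:105554110-105554359, plus strand: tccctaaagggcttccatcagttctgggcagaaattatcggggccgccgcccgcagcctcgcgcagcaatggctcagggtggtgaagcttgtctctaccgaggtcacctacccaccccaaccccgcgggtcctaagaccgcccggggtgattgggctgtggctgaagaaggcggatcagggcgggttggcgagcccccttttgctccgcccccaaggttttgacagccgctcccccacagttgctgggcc
Ctsk, chr3:95498960-95499209, plus strand: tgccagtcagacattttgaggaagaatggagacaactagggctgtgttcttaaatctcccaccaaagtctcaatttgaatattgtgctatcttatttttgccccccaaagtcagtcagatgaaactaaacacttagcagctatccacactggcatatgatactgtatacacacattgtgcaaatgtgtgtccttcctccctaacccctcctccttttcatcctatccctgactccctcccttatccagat
The Smpd1 sequence is 64.8% GC and that of Ctsk 43.2%. A match is a description of letters and not of binding, and the absence of one says only that these letters are not in this window.

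Further lysosomal genes were read in the same libraries. Of 98 such genes in a list of further hydrolases, V-ATPase subunits, transporters, sorting proteins, regulators and cathepsin inhibitors, 94 were tested. In the Vhl-Hif1 knockout 1 was called higher and 3 lower, against 2.22% and 1.42% of all genes. In the libraries labelled Vhl-Hif2 knockout 5 were higher and 16 lower, against 7.68% and 7.01% of all genes. In the triple knockout edgeR and DESeq2 called 0, and 16 had an unadjusted p under 0.05, against 11.5% of all genes. Their median log2 fold changes were 0.017, -0.064 and -0.059. Gm2a, which encodes the GM2 activator protein that presents gangliosides to β-hexosaminidase, rose in both double knockouts. It read 663, 720.2 and 679 CPM in the Vhl-Hif1 knockout against 329.8, 323 and 373 CPM (log2 fold change 1.01, edgeR adjusted p = 9.0e-07). In the libraries labelled Vhl-Hif2 knockout it read 717, 660.5 and 741 CPM against 355, 379 and 392 CPM (log2 fold change 0.91, edgeR adjusted p = 1.1e-06). Both triple-cross groups stayed between 325 and 422 CPM. Ppt1, the palmitoyl-protein thioesterase gene, was lower in both, with log2 fold changes of -0.42 and -0.50 (edgeR adjusted p = 0.028 and 0.0029).

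The Vhl-Hif1 calls among these genes also included Acp5, the tartrate-resistant acid phosphatase (-0.57, edgeR adjusted p = 0.023), and the nucleoside transporter gene Slc29a3 (-0.33, edgeR adjusted p = 0.023). The calls of Acp5, Ppt1 and Slc29a3 in that cross each held in 9 of 16 alternatives, and leaving out each of the 6 libraries in turn gave 1 to 3 called genes of the list instead of 4. In the libraries labelled Vhl-Hif2 knockout, Galc, which cleaves galactosylceramide, fell from 60.4 ± 2.44 to 33.9 ± 2.69 CPM (log2 fold change -0.84, edgeR adjusted p = 1.5e-06). Sorl1, a sorting receptor, fell from 5.14 ± 1.67 to 1.53 ± 0.280 CPM (-1.74, edgeR adjusted p = 1.2e-04). Atp6v0a1, a membrane subunit of the proton pump, fell by 0.67 on the log2 scale (edgeR adjusted p = 0.0014). Igf2r, the mannose 6-phosphate receptor that carries hydrolases to lysosomes, rose from 2.56 ± 0.720 to 7.35 ± 1.33 CPM (1.51, edgeR adjusted p = 0.0053). Ctsf, cathepsin F, rose by 0.51 (edgeR adjusted p = 0.0028) and the carboxypeptidase gene Scpep1 by 0.24 (edgeR adjusted p = 0.021), a call that was lost in 7 of 16 alternatives. The 21 calls became 13 without knockout library 1 of that cross, and also 13 without the low-count filter.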

How the data were processed

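The authors made and deposited a table of expected counts, also called estimated counts, per gene for 18 libraries, raw and not normalized, of which 89.25% of values were whole. The submitters' processing notes name FastQC, cutadapt, STAR and the GRCm38 genome; how reads were counted, with which annotation and whether by strand, is not given in the sources used here. Per the labels' protocols, 100 ng of RNA went into NEBNext Ultra II Directional libraries after polyA selection. Counts were rounded, genes with low counts were removed with filterByExpr (12900 of 32789 kept), and TMM scaling and edgeR 4.0.16 quasi-likelihood tests were run in R 4.3.3, with all 18 libraries in 1 fit and 1 coefficient per group. P-values were Benjamini-Hochberg adjusted over the 12900 genes and called under 0.05. Each knockout was compared with its own controls, then the 3 effects and the 3 control groups with each other. Standard errors and 95% intervals come from the same fit. Library totals of 19230000 to 34015000 counts make 1 CPM equal to 19.23 to 34.02 counts. DESeq2 1.42.0, no low-count filter, fitting each cross alone, a replicate block, leaving out libraries, GC-adjusted offsets and other settings were tried as alternatives. The fit was also run on simulated counts, with changes larger than those of the called lysosomal genes and no library with a GC trend. That run does not show how well smaller changes are found.

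All 32 genes are accounted for, with full values for those called in a knockout. Of the 98 further lysosomal genes, up to the 4 highest and 4 lowest called fold changes per knockout with a mean of at least 1 CPM are named. The members and lists were chosen with earlier results of these data known. Exon lengths, GC content and overlaps come from GENCODE M21 and upstream sequences from RefSeq, both on GRCm38.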

Additional observations from a re-analysis of the deposited data

Results flagged for a closer look

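The effect of the knockout differed between crosses by a direct test for 3 of the 31 tested lysosomal genes, in 4 comparisons. For Smpd1 the effect in the libraries labelled Vhl-Hif2 knockout exceeded that of the Vhl-Hif1 knockout by 0.69 on the log2 scale (edgeR adjusted p = 0.014). It exceeded that of the triple knockout by 1.12 (edgeR adjusted p = 8.6e-05). Smpd1 was higher than every control of its cross in 3 of 3 libraries labelled Vhl-Hif2 knockout. For Ctsl the Vhl-Hif2 effect minus the Vhl-Hif1 effect was -0.51 (edgeR adjusted p = 0.022), with 3 of 3 knockout libraries below the controls in the first cross and 3 of 3 above them in the second. For Ctsk the Vhl-Hif1 effect exceeded the triple effect by 0.60 (edgeR adjusted p = 0.011), with 3 of 3 Vhl-Hif1 knockout libraries above their controls. The Ctsl difference was called in 11 of 20 alternative analyses and the Ctsk difference in 19 of 20. The Smpd1 difference was called in 19 of 20 against the Vhl-Hif1 effect and in 20 of 20 against the triple effect.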

How the results depend on the processing

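In the 3 knockouts no lysosomal gene changed direction past the threshold. Ctsk in the Vhl-Hif1 knockout and Smpd1 in the libraries labelled Vhl-Hif2 knockout kept their calls in all 16 alternatives, whereas Ctsh, Ctsl, Man2b1 and Tfe3 were lost in 5, 4, 2 and 3. GC-adjusted offsets were chosen after seeing the data. With them 786 instead of 469 genes were called in the Vhl-Hif1 knockout and 2815 instead of 1895 in the Vhl-Hif2 cross. The lysosomal calls went from 1 to 4 in the Vhl-Hif1 knockout and from 5 to 10 in the Vhl-Hif2 cross. They went from 1 to 3 for the Vhl-Hif2 against the triple effect and from 1 to 5 for the triple-cross against the Vhl-Hif2 controls. The Vhl-Hif2 minus triple difference of Tfeb turned from 0.10 to -0.39 (edgeR adjusted p = 0.020). With the spread estimated without triple-cross control library 2, also chosen after seeing the data, 861 and 2907 genes were called in the Vhl-Hif1 and Vhl-Hif2 crosses, the latter instead of 1895, and 3 and 9 lysosomal genes. DESeq2 called 2 lysosomal genes in the Vhl-Hif1 cross, 2 for each effect against the triple effect and 9 for the triple-cross against the Vhl-Hif2 controls, and 11 genes instead of 5 in the triple knockout. Fitting each cross alone gave 2 lysosomal calls in the Vhl-Hif1 knockout and 2 genes in the triple knockout. Without the low-count filter, 1 lysosomal gene differed between the Vhl-Hif2 and Vhl-Hif1 effects instead of 2, and 4 between the triple-cross and Vhl-Hif2 controls. Without both controls with raised Egln3 these were 0 and 3, and 1 instead of 8 for the triple-cross against the Vhl-Hif1 controls. The cause was not tested.

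Leaving out single libraries gave 275 to 360.0 genes in the Vhl-Hif1, 1249 to 1639 in the Vhl-Hif2 and 3 to 4 in the triple knockout, with 1 to 2, 2 to 4 and 0 lysosomal genes. It gave 1 to 2, 1 to 4 and 1 to 2 lysosomal genes for the Vhl-Hif2 against Vhl-Hif1, Vhl-Hif2 against triple and Vhl-Hif1 against triple effects. Over all alternatives the count of all genes called ran from 194 to 550.0 for the Vhl-Hif2 against Vhl-Hif1, 675 to 1509 for the Vhl-Hif2 against triple and 150 to 479 for the Vhl-Hif1 against triple effects. Between controls it ran from 18 to 88 (Vhl-Hif2 against Vhl-Hif1), 211 to 1469 (triple cross against Vhl-Hif1) and 141 to 983 (triple cross against Vhl-Hif2). Of the 98 further lysosomal genes, 1 to 10 were called in the Vhl-Hif1 and 13 to 26 in the Vhl-Hif2 cross. For the triple-cross controls, leaving out single libraries gave 1 to 13 lysosomal genes against the Vhl-Hif1 and 0 to 10 against the Vhl-Hif2 controls.

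Replicate numbers are shared between groups but did not pair the libraries: same-numbered knockout and control libraries correlated at -0.291 to 0.234, and not every library correlated best with its own number. With the replicate block 313, 1440.0 and 4 genes were called in the Vhl-Hif1, Vhl-Hif2 and triple knockouts, with 1, 4 and 0 lysosomal genes; the Ctsl call in the Vhl-Hif2 cross was lost (edgeR adjusted p = 0.057). For the effect differences it gave 1 (Vhl-Hif2 against Vhl-Hif1), 1 (Vhl-Hif2 against triple) and 0 (Vhl-Hif1 against triple, where the Ctsk call had an edgeR adjusted p of 0.081), and 1 and 13 of the 98 further genes in the Vhl-Hif1 and Vhl-Hif2 crosses. At 19.23 to 34.02 counts per CPM, depth limits Ctse, with 0 to 5 counts per library.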
